A study of Mus musculus with 45 samples.

Results

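Mouse embryonic stem cells (mESCs) kept without EHMT2 for 15 d were compared with vehicle-treated sister cultures by poly(A)-selected, stranded RNA-seq. The 15 d arms comprised 6 of the 45 libraries of the series, all of the groups dTAG_15d and DMSO_15d, and the comparison covered 55401 genes and 1146 repeat families. All 6 libraries came from the line EHMT2-dTAG-mcherry (strain BL6/129, made from KH2 mESCs), in which both Ehmt2 alleles end in an FKBP12 degron and carry an mCherry reporter, so the controls carried the altered alleles too. Each group held 3 clones (E2-17, E2-20 and E2-K71) grown in FBS/LIF medium on mouse embryonic fibroblast feeders, and the groups differed in the addition of dTAG-13, the degrader of the tagged protein, or of the solvent DMSO for 15 d. Values set beside them came from the same clones after 24 h or 7 d of dTAG-13 or DMSO, from a washout group (Recovery_8d, 7 d of dTAG-13 and 8 d without it), from DMSO-treated cells sorted by a MERVL-GFP reporter into 2-cell-like cells (2CLCs) and mESCs after 72 h, and from wild-type J1 mESCs, another line, given the EHMT1/EHMT2 inhibitor UNC0638 or DMSO for 48 h, each group with 3 libraries. The clones share a parental line, so the p-values describe the spread between clones of that line, and the libraries hold RNA of feeders and of all mESC states in the dish together. The model behind the 15 d p-values included the washout group, so their spread also draws on the washout libraries.

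EHMT2 (also called G9a) works with its partner EHMT1 to place the dimethyl mark on lysine 9 of histone H3 (H3K9me2), a mark of silent euchromatin. In mESC cultures it is known for holding back germ line genes and the programme of the 2-cell embryo, which a small share of cultured mESCs enters for a time. That programme includes the transcription factor DUX (gene Duxf3 in the mouse annotation), the Zscan4 proteins, several multi-copy gene families, and the endogenous retrovirus MERVL with its LTR, MT2_Mm, which serves as a promoter in such cells.

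The degrader acts on the protein, which RNA-seq does not measure, and Ehmt2 mRNA (chr17, plus strand) had 556, 756 and 761 normalized counts in the DMSO libraries A, B and C against 589, 493 and 589 in the dTAG libraries (log2 fold change -0.31, SE 0.19, adjusted p = 0.60). Normalized counts are read counts divided by a library's size factor. They are levels of 1 gene across libraries, and they are not scaled to gene length. The tables deposited for these groups give means, and the whole reads of the single libraries were recovered from them. The library letters are not tied to clones, so that DMSO library A and dTAG library A need not be the same clone. Nanog, a pluripotency factor, had 6035 to 8516 normalized counts in DMSO and 6491 to 8050 with dTAG-13, and Sox2 had 4668 to 4974 and 4612 to 5610, so both groups carried the defining mRNAs of mESCs.

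Gene reads recovered per library came to 10003191 to 15216330 in DMSO and 13103521 to 17788762 with dTAG-13. DMSO library A stood apart from the other controls. The SD of the log2 difference over 15369 genes was 0.61 between A and B and 0.72 between A and C, against 0.34 between B and C and 0.33 to 0.41 among the dTAG libraries. Library A also held more repeat reads, 321650 normalized counts over 1133 families against 171070 and 159820 in B and C, where the dTAG libraries held 243770 to 296100. For the gene lists and repeat families described here, a count of calls that moves by over 1.5 times without this library is therefore also given without it.

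The 15 d state was mostly one of added transcripts. At an adjusted p under 0.05 in the authors' DESeq2 Wald test and an absolute log2 fold change of at least 1, 762 of 23111 tested genes were called (3.30%), of which 690 rose (2.99%) and 72 fell (0.312%). Genes that rose had a median log2 fold change of 4.24 (middle 50%: 2.17 to 5.05), and 451 of them rose by 3 or more on the log2 scale. Those that fell had a median of -1.25, and 65 of the 72 changed by less than 4-fold. The genes that rose were near silent in the controls, with a median DMSO level of 5.50 normalized counts against 68.4 with dTAG-13. Of the 690, 423 (61.3%) had a DMSO mean under 10, where 26.6% of all tested genes did, and 52 were listed at 0 in every DMSO library. The median over all tested genes was -0.0012. In bulk libraries fewer cells of a type and less RNA per cell cannot be told apart, so these folds may stand for a few cells with many transcripts or many cells with a few.

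**Figure D1:**
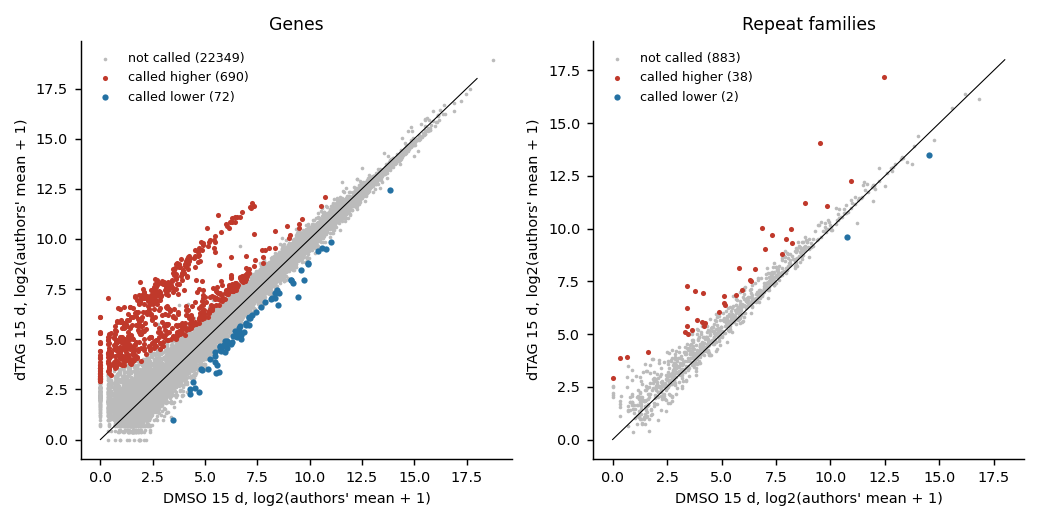
Group means of normalized counts with dTAG-13 for 15 d (vertical axis) against DMSO for 15 d (horizontal axis), both as log2 of the authors' mean plus 1, for genes (left) and repeat families (right), with the diagonal. Coloured points are features called at an adjusted p under 0.05 and an absolute log2 fold change of at least 1, and they lie mostly above the diagonal, 690 genes above it against 72 below.

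The libraries of the 2 groups did not overlap for 689 of the 690 genes that rose and for 71 of the 71 recovered genes that fell, where 11.7% and 7.69% of all 22769 recovered tested genes had every dTAG library above, or below, every DMSO library. Without DMSO library A 1066 genes were called higher and 97 lower. Protein-coding genes made up 436 (63.2%) of the genes that rose and 70.4% of all tested, and lincRNAs 64 (9.28% against 3.97%). Pseudogenes of all kinds numbered 151 (21.9% against 14.3%). The unprocessed ones, copies made by duplication, gave 74 of these (10.7%) but 1.08% of all tested genes.

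Genes of the 2-cell programme moved together. Of 40 tested members of a list of 45 2-cell-stage genes, 35 rose, with a median log2 fold change of 4.69 (4.66 with the 2 members listed at 0 in DMSO set to their bound), and 36 of the 40 had also risen at 7 d. Members silent in both groups do not pass DESeq2's filter on low values, so list counts and medians here describe the tested members alone. Their summed level was 1232 to 1826 normalized counts per DMSO library and 16590 to 38070 per dTAG library. The factor thought to start the programme was itself higher. Duxf3 had 11.0, 5.86 and 9.25 normalized counts in DMSO and 59.5, 73.4 and 140 with dTAG-13 (log2 fold change 3.37, SE 0.49, adjusted p = 6.9e-10). It was the sole member called among 8 genes listed as activators of the programme. Dppa2 and Dppa4, which act upstream of DUX, had log2 fold changes of -0.15 (adjusted p = 0.93) and -0.30 (adjusted p = 0.60). Dppa2 had been higher at 7 d (1.09, adjusted p = 2.6e-06), and its effect at 15 d was smaller by the test of the difference (-1.24, adjusted p = 0.028).

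Zscan4, a family of SCAN-domain zinc finger genes tied to telomere maintenance, had 9 of 9 tested members higher, at a median log2 fold change of 4.44. Zscan4c went from 125, 232 and 128 normalized counts in DMSO to 1694, 3764 and 4280.3 with dTAG-13 (4.33, SE 0.41). All 3 dTAG libraries were above all controls, and dTAG library A was the lowest of them for each of the 9 members. Usp17l genes, which encode deubiquitinases, had 5 of 6 members higher and included the gene with the smallest adjusted p of all, Usp17lc, with 24.6, 37.1 and 19.8 normalized counts against 688, 909 and 1123 (5.05, SE 0.30, adjusted p = 1.1e-57). Usp17lb reached the highest level of the family, from 33.9, 69.4 and 39.7 to 1609, 2502 and 2953 normalized counts (5.63, SE 0.36). Reads that fit several copies of such a family were put at a single random place by the aligner, so values of single copies are uncertain while those of a family as a whole are less so.

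The MATH-BTB genes Tdpoz and Spopfm, which encode relatives of the ubiquitin ligase adaptor SPOP, had 11 of 12 members higher at a median of 5.45 on the log2 scale. Tdpoz3 was listed at 0 in the 3 DMSO libraries and had 42.2, 64.8 and 95.0 normalized counts with dTAG-13, at least 66.5-fold higher with the control taken as 3 reads over the group. Spopfm1 rose from 1.69, 3.91 and 3.97 to 107, 181 and 179 (5.66, SE 0.58). Obox genes, homeobox genes of the oocyte and early embryo, had 19 of 27 tested members higher (median 4.64, or 4.57 with 4 members listed at 0 in DMSO set to their bound), and all 19 are annotated as Obox4 pseudogenes. Among PRAME-like genes 7 of 11 were higher, of which Pramef25 had the smallest adjusted p, with 11.0, 23.4 and 7.93 against 191, 296 and 413 normalized counts (4.39, SE 0.47), while Pramef8 and Pramef12, well expressed in the controls, had log2 fold changes of 0.13 (adjusted p = 0.85) and 0.38 (adjusted p = 0.42).

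**Figure D2:**
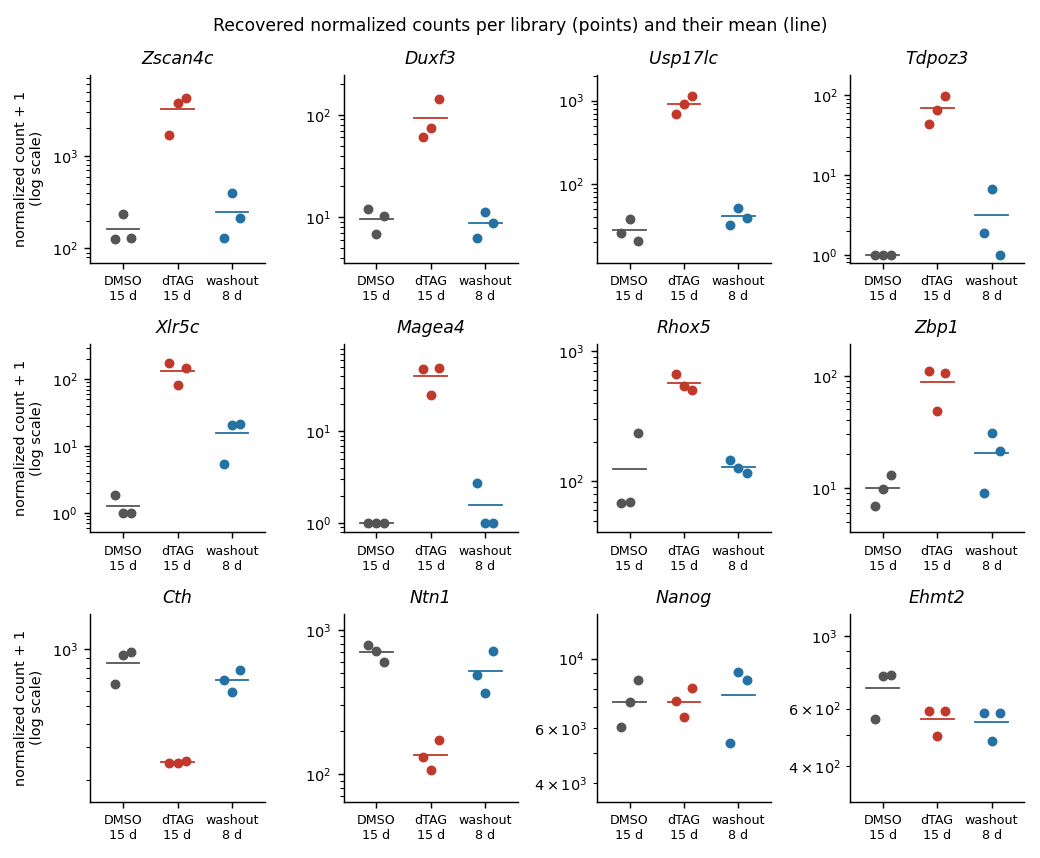
Recovered normalized counts of named genes (log axis, 1 added) in the 3 libraries of each 15 d group and of the washout group, with 1 point per library and a line at the group mean. The dTAG libraries lie apart from the DMSO libraries for the genes called, below them for Cth and Ntn1 and above them for the others, and overlap with them for Nanog and Ehmt2.

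Windows around the start sites of genes that rose show how closely related some of the copies are and which CG dinucleotides they hold. The windows come from RefSeq (GRCm38.p6), span 250 bases before to 50 after the start, run 5′ to 3′ on the gene's strand, and have CG dinucleotides in capitals. Gm4340 (chr10:104193792-104194091, plus strand) belongs to an unnamed gene family on chromosome 10. Its window equals that of Gm21312 and differs by 1 base from those of Gm8764, Gm21304 and Gm20765. Zscan4c (chr7:11005495-11005794, plus strand) is a 2-cell gene, and Rhox2a (chrX:37244742-37245041, plus strand) and Xlr5a (chrX:73117653-73117952, minus strand) belong to the X-linked families described next.
Gm4340: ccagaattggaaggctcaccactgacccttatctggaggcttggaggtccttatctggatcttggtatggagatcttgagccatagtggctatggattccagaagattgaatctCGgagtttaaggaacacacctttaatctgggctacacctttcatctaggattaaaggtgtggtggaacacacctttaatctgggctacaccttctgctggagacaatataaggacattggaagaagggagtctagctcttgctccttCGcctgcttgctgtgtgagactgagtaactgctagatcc
Zscan4c: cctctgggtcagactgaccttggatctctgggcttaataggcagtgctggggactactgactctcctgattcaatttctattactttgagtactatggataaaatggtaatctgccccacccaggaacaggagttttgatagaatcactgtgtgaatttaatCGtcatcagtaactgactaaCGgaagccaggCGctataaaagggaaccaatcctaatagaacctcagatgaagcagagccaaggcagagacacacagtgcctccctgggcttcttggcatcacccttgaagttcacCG
Rhox2a: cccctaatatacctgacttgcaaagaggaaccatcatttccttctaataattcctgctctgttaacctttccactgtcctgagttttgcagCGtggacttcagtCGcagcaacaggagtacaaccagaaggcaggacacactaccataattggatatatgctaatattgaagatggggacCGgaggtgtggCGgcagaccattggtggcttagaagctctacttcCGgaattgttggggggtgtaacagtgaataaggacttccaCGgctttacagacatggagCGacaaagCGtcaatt
Xlr5a: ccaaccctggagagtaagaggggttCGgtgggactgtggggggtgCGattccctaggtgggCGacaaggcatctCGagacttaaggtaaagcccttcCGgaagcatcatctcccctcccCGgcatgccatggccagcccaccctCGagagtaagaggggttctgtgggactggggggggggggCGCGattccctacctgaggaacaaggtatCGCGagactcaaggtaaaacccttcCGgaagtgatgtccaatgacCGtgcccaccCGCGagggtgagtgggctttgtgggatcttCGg
The CG count was 2 in Gm4340, 4 in Zscan4c, 8 in Rhox2a and 16 in Xlr5a, and the median over the 13626 tested genes with a window was 18.5. Over the 2459 of them with a DMSO mean under 10 that were not called higher the median was 8. A comparison of CG content between gene groups is void, because windows matched 328 of the 690 genes that rose and 59.0% of those tested. Among the 328, 21 shared an identical window with another gene that rose.

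Gm8764, Gm4340, Gm21312, Gm6763 and Gm21304 of this chromosome 10 family were all among the 10 genes with the smallest adjusted p. Gm4340 had 78.8, 138 and 87.2 normalized counts in DMSO and 1739, 2458 and 2386 with dTAG-13 (4.44, SE 0.30). Gm8764 had 77.9, 114 and 66.1 against 1699, 2489 and 2271 (4.64, SE 0.28). The start-site windows of these 2 genes differ by 1 base. Reads that fit several copies of this family were put at a single random place. The close levels and folds of the copies are therefore not independent observations. Gm21939, a processed pseudogene on chromosome 12, was the other gene outside a named family in the first 10, at 39.8, 52.7 and 31.7 against 776, 1027 and 1111 (4.54, SE 0.28).

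Families of X-linked genes of the germ line also rose. X-linked genes made up 62 of the 690 genes that rose, and the 62 include genes outside these families. Of them 34 were also called higher in sorted 2CLCs than in mESCs and 28 were not. The 62 were 6.82% of the 909 tested on the X, the highest share of any chromosome other than the Y (3 of 11). Chromosome 12 had 5.15% and chromosome 17 had 1.42%. The Xlr genes, whose products resemble a component of the meiotic chromosome axis, had 9 of 12 tested members higher at a median of 6.04 (4.93 with the 3 listed at 0 in DMSO set to their bound). Xlr5c had the largest fold of any gene with a mean of at least 50, with 0.847, 0 and 0 normalized counts in DMSO against 173, 82.1 and 145 (8.50, SE 1.26), a fold that rests on 1 control read. Xlr5a followed the same pattern with 0, 0.977 and 1.32 against 140, 57.0 and 84.7 (7.09, SE 1.17). The Xlr3 genes differed among the controls, and Xlr3a, with 1.69, 9.77 and 287 normalized counts in DMSO against 920, 557 and 901, was not called (3.00, adjusted p = 0.37). 

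Magea genes, melanoma antigen genes otherwise read in the testis, were listed at 0 in all 3 DMSO libraries for all 6 tested members of 10, and all 6 were called. Magea4 had 46.5, 24.2 and 48.1 normalized counts with dTAG-13, at least 39.1-fold higher, and Magea5 had 67.2, 14.5 and 33.2, at least 37.8-fold. The median over the 6 at their bounds was 4.34 on the log2 scale, and 4 of the 6 (Magea2, Magea4, Magea5 and Magea8) were called without DMSO library A, as were 3 of the 6 by edgeR and 3 by limma on all libraries. Rhox homeobox genes, a reproductive cluster on the X, had 5 of 16 tested members higher (4 without DMSO library A, 3 by edgeR and 3 by limma). Rhox2a had 1.69, 0.977 and 2.64 normalized counts in DMSO against 96.5, 32.9 and 74.4 (5.32, SE 0.80). Rhox5 had 67.8, 68.4 and 233 against 669, 533 and 498 (2.22, SE 0.40). The dTAG libraries again lay above all controls for both, with wider spread among the controls of Rhox5.

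Genes of the Y chromosome were also higher. Uty, a histone demethylase gene, had 5.08, 3.91 and 6.61 normalized counts in DMSO against 106, 63.8 and 35.5 (3.75, SE 0.60), and the RNA helicase gene Ddx3y had 2.54, 2.93 and 1.32 against 113, 73.4 and 25.2 (4.92, SE 0.80). Kdm5d was listed at 0 in DMSO and had 16.4, 2.90 and 4.58 with dTAG-13, and Eif2s3y had 0, 0 and 3.97 against 13.8, 2.90 and 6.87 (adjusted p = 0.21). The washout libraries had 22.2, 35.3 and 67.5 for Uty and 16.0, 77.1 and 68.6 for Ddx3y, so these levels were not back at those of DMSO. Xist, the RNA that coats a silent X, had 220, 118 and 107 in DMSO and 99.1, 352 and 276 with dTAG-13 (adjusted p = 0.58). The 22 listed feeder fibroblast genes summed to 18260 to 20050 normalized counts in DMSO and 18660 to 29960 with dTAG-13, their part in these values was not tested, and the sex of the feeders is not given in the sources used here.

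Germ line genes outside these families did not move as a group. Of 31 tested germ line and meiosis genes, Rpl10l, a testis copy of a ribosomal protein gene, had 287, 451 and 724 normalized counts in DMSO against 1521, 1343 and 1991 (1.73, SE 0.29), and Asz1 of the piRNA pathway was listed at 0 in DMSO and had 9.48, 5.80 and 10.3. These were the 2 called, where 2.99% of all tested genes rose, and Dazl (1.46) and Smc1b (3.69) were called beside them without DMSO library A. Among the listed oocyte and maternal effect genes, none of the 14 tested was called by DESeq2, edgeR or limma, and 1 had an unadjusted p under 0.05. The list is not complete, and Nlrp14, a maternal gene outside it, was called higher (2.17, SE 0.24). Of 33 tested olfactory receptor genes out of 1410, 8 were higher, of which edgeR and limma called 3 each, and Olfr376 and Olfr815 were the 2 called without DMSO library A. Olfr815 had 0.847, 0 and 0 normalized counts in DMSO against 14.6, 21.3 and 21.8. Of 18 tested vomeronasal receptor genes none was called by DESeq2, edgeR or limma, with 2 at an unadjusted p under 0.05.

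**Figure D3:**
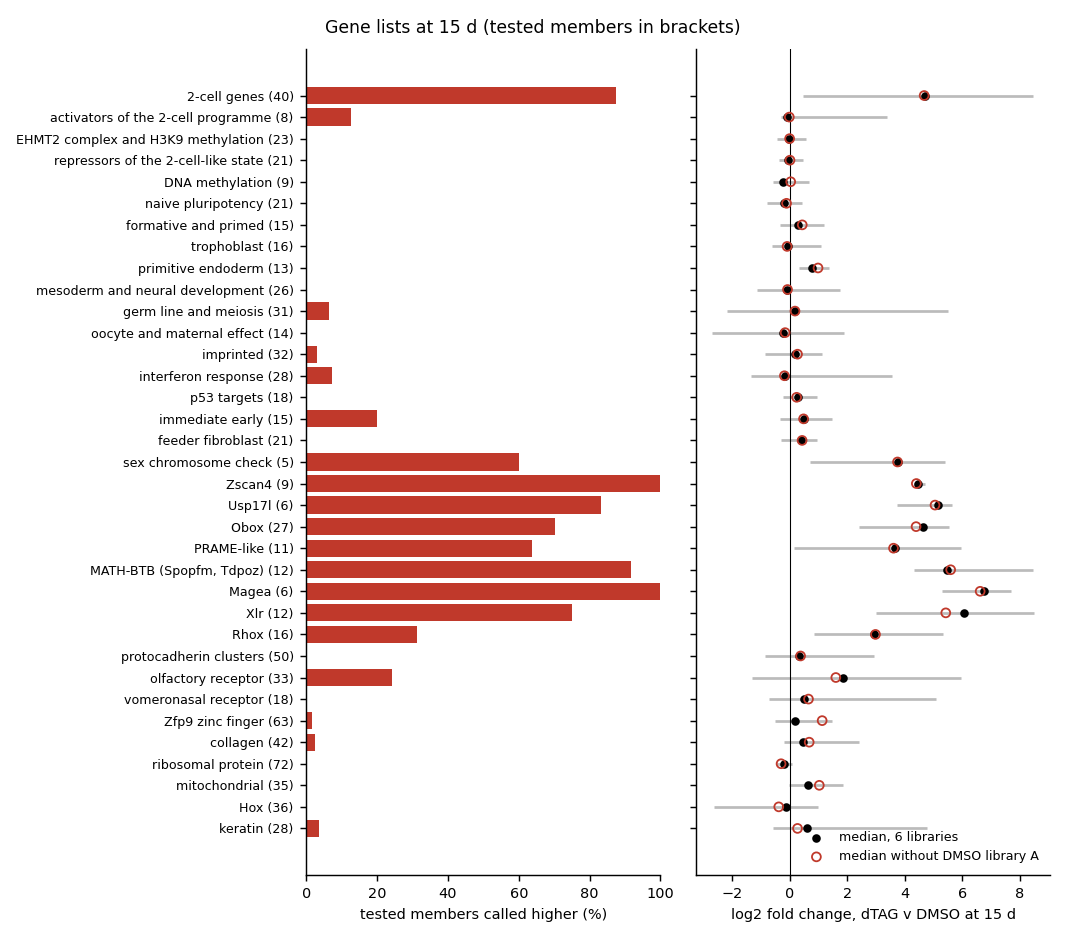
Share of the tested members called higher at 15 d in each gene list (left, bars, in percent) and the log2 fold changes of the tested members (right), with a grey line from the lowest to the highest, a black point at the median and an open red point at the median without DMSO library A. The 2-cell list and the Zscan4, Usp17l, Obox, MATH-BTB, Magea and Xlr families have medians above 4, and the lists of pluripotency, ribosomal and chromatin genes lie around 0.

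The machinery that sets or reads H3K9 methylation gave no call by the main test. None of 23 tested genes of the EHMT2 complex and of H3K9 methylation was called by DESeq2, edgeR or limma, with 1, Kdm4a (-0.46, adjusted p = 0.16), at an unadjusted p under 0.05. Without DMSO library A, Tasor, Zfp644 and Zfp462 passed at 1.57, 1.52 and 1.13. Of 21 tested repressors of the 2-cell-like state none was called by the 3 tools and none had an unadjusted p under 0.05, while Smchd1 (1.09) and Zfp809 (1.05) passed without that library. Of 9 DNA methylation genes none was called, with 1 at an unadjusted p under 0.05. The values of Tet1, a cytosine dioxygenase gene, show where the controls part, with 15407, 5137 and 3607 normalized counts in DMSO libraries A, B and C against 6008, 6720 and 7784 with dTAG-13 (-0.24, adjusted p = 0.92).

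Pluripotency genes did not cross the 2-fold limit. None of 21 naive pluripotency genes was called by DESeq2, edgeR or limma, and 5 had an unadjusted p under 0.05. Fgf4, a growth factor that prepares mESCs for differentiation, had 3337, 3457 and 3500 normalized counts in DMSO and 2291, 1878 and 2145 with dTAG-13 (log2 fold change -0.71, adjusted p = 0.0037). Nr0b1 (-0.80, adjusted p = 0.0065) and Dppa5a (-0.64, adjusted p = 0.0013) also had an adjusted p under 0.05 below that limit. Pou5f1 had group means of 20496 and 15490 normalized counts (-0.40, adjusted p = 0.32). Of 15 formative and primed genes none was called by the 3 tools, 6 had an unadjusted p under 0.05, and Otx2 had the smallest adjusted p (0.84 on the log2 scale, adjusted p = 0.072).

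Markers of other lineages stayed below the call as well. All 13 tested primitive endoderm genes had a log2 fold change above 0, with a median of 0.77, and none was called by DESeq2, edgeR or limma, while 9 had an unadjusted p under 0.05. Gata4, a transcription factor of that lineage, had 97.4, 75.2 and 74.0 normalized counts in DMSO against 160, 169 and 129 (0.89, SE 0.23, adjusted p = 0.0033). The basement membrane collagens Col4a1 (0.80, adjusted p = 0.0033) and Col4a2 (0.72, adjusted p = 0.014) had like values, and without DMSO library A Gata6 (1.75), Gata4 (1.04) and Lama1 (1.35) were called. Trophoblast genes had a median of -0.06 over 16 tested, with none called by the 3 tools and 1 at an unadjusted p under 0.05. Of 26 tested genes of mesoderm and neural development none was called by them, 2 had an unadjusted p under 0.05, and Neurod1 (1.14) was called without DMSO library A. Nes, an intermediate filament gene of neural progenitors, had 3560, 3299 and 3390 normalized counts against 5922, 5300 and 6511 (0.79, adjusted p = 0.0025).

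Genes that respond to signals and stress gave a few calls, where 2.99% of all tested genes rose. Among 15 immediate early genes 3 rose, Jun from 754, 608 and 1039 to 1938, 1417 and 2722 normalized counts (1.34, SE 0.30), Egr1 from 2525, 1068 and 1495 to 4320.4, 2657 and 6226 (1.38, SE 0.37) and Egr3 (1.45, SE 0.36). The dTAG groups lay above the controls in all 3. The tests of edgeR and limma called 2 of the 15 each. Of 18 p53 target genes, 15 had a fold above 0 and none was called by DESeq2, edgeR or limma, with 6 at an unadjusted p under 0.05. Cdkn1a, the cell cycle inhibitor p21, had 1298, 1268 and 1282 normalized counts in DMSO against 1959, 2192 and 2132 (0.71, SE 0.15, adjusted p = 8.8e-05). Btg2 (0.85), Pmaip1 (0.95) and Plk2 (0.69) also had an adjusted p under 0.05, and Pmaip1 (1.03) and Trp53inp1 (1.10) were called without DMSO library A. Of 28 interferon response genes, the nucleic acid sensor Zbp1 rose from 5.93, 8.79 and 11.9 to 110, 47.4 and 104 (3.33, SE 0.54) and Oasl2 from 88.9, 118 and 79.3 to 224, 198 and 210 (1.14, SE 0.26), and without DMSO library A Oasl1 was called lower (-1.54).

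Several lists held 1 call each, a share near that of all tested genes that rose (2.99%). Of 32 imprinted genes, Sfmbt2, which is read from the paternal allele, was called, with 751, 403 and 406 normalized counts in DMSO against 1016, 1350 and 836 (1.03, SE 0.27), and Zim1 (1.43) and Meg3 (1.01) joined it without DMSO library A. Slc38a4 (0.53, adjusted p = 0.0040) and Phlda2 (-0.88, adjusted p = 0.027) moved less than 2-fold. Among 42 collagen genes Col2a1 was called (1.12, adjusted p = 6.8e-04), with Col1a1 (1.11) and Col6a3 (1.26) called beside it without DMSO library A, among 28 keratins Krt12 (2.54, adjusted p = 1.5e-04), and among 63 Zfp9 zinc finger genes Zfp951 (1.45, adjusted p = 0.013). Without DMSO library A 6 other Zfp9 genes passed and the list's median went from 0.16 to 1.12. Of 21 tested feeder fibroblast genes 18 had a fold above 0 (median 0.40), none was called by DESeq2, edgeR or limma, and 3 had an unadjusted p under 0.05. Mmp2, a matrix protease gene, had 468, 445 and 348 against 774, 727 and 908 normalized counts (0.93, adjusted p = 1.9e-05), and without DMSO library A it was called with Col1a1 and Col6a3.

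The remaining lists held no call by DESeq2, edgeR or limma. Of 72 ribosomal protein genes all but 1 had a log2 fold change below 0, with a median of -0.20 and 1 unadjusted p under 0.05. Of 35 mitochondrial genes 34 lay above 0 (median 0.64, 13 unadjusted p under 0.05), and without DMSO library A the median was 1.02 and 4 were called, mt-Rnr2, mt-Tl1, mt-Tw and mt-Nd4l. Protocadherin genes (50 tested, median 0.33, 7 unadjusted p under 0.05) and Hox genes (36 tested, median -0.13, 4 unadjusted p under 0.05) complete the lists, and without DMSO library A Hoxa10 was called lower (-1.65).

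The 72 genes that fell were few and mostly changed less than 4-fold. Ntn1, which encodes the guidance cue netrin-1, had 781, 714 and 595 normalized counts in DMSO and 130, 105 and 171 with dTAG-13 (-2.37, SE 0.27, adjusted p = 9.5e-16). Cth, an enzyme that makes cysteine, had 656, 928 and 968 against 246, 246 and 253 (-1.77, SE 0.20, adjusted p = 1.3e-16), with the dTAG libraries closer to each other than the controls. Sec24c, a subunit of the COPII vesicle coat, had 2003, 1611 and 1628 against 738, 750 and 718 (-1.25, SE 0.15). Dmrt1, a transcription factor gene of the germ line, had 520, 500 and 744 against 219, 206 and 250 (-1.39, SE 0.21). Gys1, the glycogen synthase of muscle and other tissues, had 1861, 2197 and 2197 against 998, 871 and 912 (-1.17, SE 0.20). The others of the 10 with the smallest adjusted p were Plekhb1, Selenoi, Gm7972, Hsd17b14 and Tmem179, at log2 fold changes of -1.15, -1.19, -1.75, -1.14 and -1.51. Crocc2 (-2.38) was also among the 5 largest falls with a mean of at least 50.

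Many of the genes that rose were neighbours. Runs of 4 or more genes called higher along a chromosome, with fewer uncalled tested genes between them than called ones, numbered 26 and held 266 of the 690 (38.6%). No run of genes called lower was found, but 72 genes fell where 690 rose, so the numbers of runs are not comparable. The longest by gene number lay at chr5:93481829-95746617 (GRCm38), where 32 of 33 tested genes rose, with a median log2 fold change of 4.44. The run at chr12:87480108-88324026 held 29 of 38, that at chr3:93628640-94266784 with the Tdpoz and Spopfm genes 21 of 23, and that at chr10:100297941-104196522 with Gm4340 and its relatives 20 of 30. The run at chr7:15129168-15904020, made of Obox4 pseudogenes and Crxos, held 19 of 25, that at chr4:143511343-145575161 with Pramef and Pramel genes among others 16 of 29, and that at chr7:10794242-11614112 with the Zscan4 genes, Gm18204, Gm6909 and Gm45551 12 of 15. On the X the Xlr run at chrX:73033981-73398736 held 14 of 19, the Fthl17 run 6 of 7, the Rhox run 4 of 7 and the Magea run 4 of 5. The smallest folds were in a run of 7 of 7 related genes at chr2:83955693-83993045 (Gm13698 and its neighbours), with a median of 1.24. Genes in runs had a median log2 fold change of 4.72 against 2.96 for the other genes that rose, and 244 of 266 (91.7%) had also risen at 7 d against 247 of 424 (58.3%). Neighbouring copies share reads and are not independent observations.

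The sorted cells allow the 690 genes to be split by whether they were also higher in 2CLCs than in mESCs of the DMSO cultures, where 3314 of 25470 tested genes were called (13.0%). Of the 690, 513 (74.3%, or 15.5% of the 3314) were, and 177 (25.7%) were not. The 177 include untested genes, as 677 of the 690 were tested in the sorted cells, and genes higher below the fold limit. The 513 had a median log2 fold change of 4.49 at 15 d and the 177 of 2.18. X-linked genes were 34 of the 513 (6.63%) and 28 of the 177 (15.8%). Pseudogenes were 27.9% and 4.52%, and protein-coding genes 55.4% and 85.9%. In the run of Xlr genes 2 of 14, in that of Magea genes 1 of 4 and in that of Rhox genes 0 of 4 belonged to the 513. All 12 genes of the Zscan4 run and all 6 of the X-linked Fthl17 run did. These shares describe the 2 sets and were not tested.

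Genes outside the 2CLC set with the smallest adjusted p were chosen after their values were seen. Nxf3, an X-linked relative of an mRNA export factor, had 14.4, 6.84 and 10.6 normalized counts in DMSO and 347, 356 and 340 with dTAG-13 (5.02, SE 0.39), and its log2 fold change between 2CLCs and mESCs was 0.40 (adjusted p = 0.66). Tgtp1, an interferon-inducible GTPase, had 28.0, 47.9 and 74.0 against 401, 338 and 507 (3.08, SE 0.31). Nlrp14, a maternal gene, had 44.0, 42.0 and 37.0 against 198, 184 and 175 (2.17, SE 0.24). Efhc2 on the X (5.87, SE 0.66), Samd7, a gene of the photoreceptor (6.13, SE 0.79), the phosphatase gene Dusp10 (1.36, SE 0.18) and Tph2, which makes serotonin (3.10, SE 0.42), completed the first 7. Between 2CLCs and mESCs Dusp10 was higher below the fold limit (0.94, Wald test, adjusted p = 0.015). By that test Tph2 was at 2.71 (adjusted p = 0.14) and Efhc2 at 1.66 (adjusted p = 0.097). Nlrp14 was at 0.48, Tgtp1 at -0.12 and Samd7 at -0.15.

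Repeat families held a few strong risers over a small shift of the rest to higher values. Of 923 tested families 40 were called (4.33%), of which 38 rose (4.12%) and 2 fell (0.217%). The 3 libraries of each group did not overlap in 157 of 910 recovered families that were higher (17.3%) and in 11 that were lower (1.21%), and in 37 of the 37 recovered families called higher. The median log2 fold change of all tested families was 0.30 (0.83 without DMSO library A), where that of genes was -0.0012 (0.04 without it), and after subtraction of that shift 27 were higher and 3 lower. Repeat reads made up 2.71% of the DMSO mean, 3.50% of the dTAG mean and 2.74% of the washout mean.

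MERVL had the smallest adjusted p of the families. The MERVL LTR, MT2_Mm, had 832, 837 and 559 normalized counts in DMSO and 12516, 20576 and 17797 with dTAG-13 (4.51, SE 0.32, adjusted p = 2.7e-42), and the internal part MERVL-int had group means of 5617 and 147290 (4.71, SE 0.35). The ERVL family that holds both went from 1.84% to 23.3% of all repeat reads, and without MERVL-int, whose dTAG reads could not be recovered, its libraries summed to 4156 to 7373 in DMSO and 20111 to 30422 with dTAG-13. Of 86 tested ERVL members 6 rose (10 without DMSO library A), the others being MERVL_2A-int (2.40), ERVL-B4-int (2.35), MT2B2 (1.76) and MLT2B1 (1.26). The families named MT2C_Mm and MT2B1 were not called, at 0.79 (adjusted p = 0.20) and 1.04 (adjusted p = 0.061).

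Among 267 tested ERVK families 16 rose, and 40 did without DMSO library A. IAPLTR2a, an LTR of intracisternal A particles, had 20.3, 22.5 and 7.93 normalized counts in DMSO and 113, 148 and 110 with dTAG-13 (2.83, SE 0.36). RLTR45-int had 274, 113 and 85.9 against 860, 997 and 594 (2.37, SE 0.40), and IAPEy-int had 16.9, 5.86 and 6.61 against 90.5, 52.2 and 79.0 (2.88, SE 0.57). The IAP internal part IAPEz-int was not called, at -0.39 (adjusted p = 0.32), nor were ETnERV-int (-0.56, adjusted p = 0.53) and MMETn-int (-0.69, adjusted p = 0.30). Of 100 ERV1 families 3 rose (11 without DMSO library A), with RLTR6B_Mm, an LTR, from 175, 99.6 and 64.8 to 569, 878 and 1707 (3.21, SE 0.44). The 2 families that fell were of ERV1 too, MMERGLN_LTR with 2571, 1351 and 1249 against 618, 654 and 1079 normalized counts (-1.14, SE 0.31) and MMERGLN-int with means of 23828 and 11568 (-1.04, SE 0.32). Without DMSO library A MMERGLN_LTR stood at -0.73 (adjusted p = 0.025) and was not called, as it was not by edgeR or limma, and MMERGLN-int could not be fitted. Of 88 ERVL-MaLR families 4 rose (12 without DMSO library A), among them MT-int (1.58) and MLT1L (1.72).

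**Figure D4:**
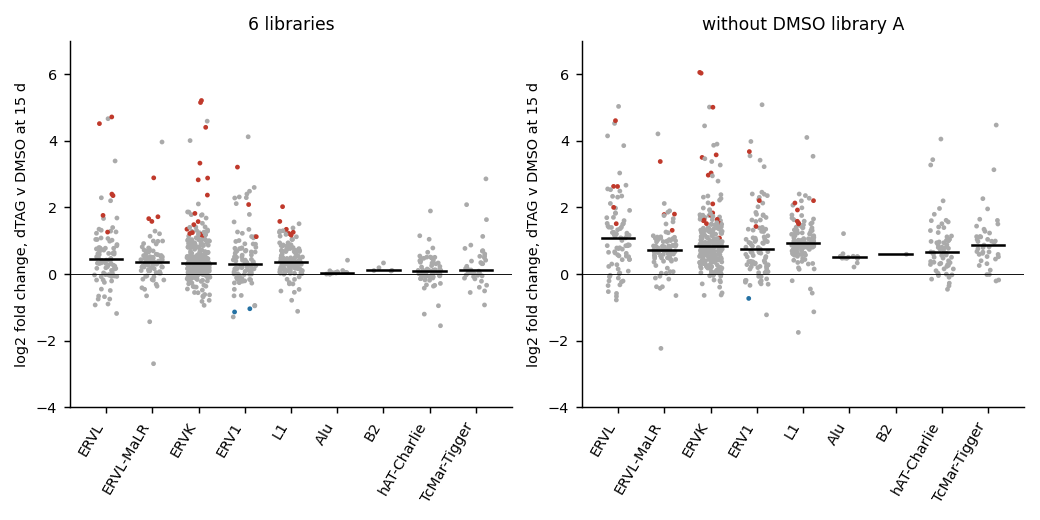
Log2 fold change at 15 d of tested repeat families (1 point each), grouped by family on the horizontal axis, over the 6 libraries (left) and without DMSO library A (right), with a bar at the median and the families called over the 6 libraries in red (higher) and blue (lower). The median of each group shown is higher on the right, where MERVL-int, MMERGLN-int and most B2 families are missing because their reads could not be recovered.

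Of 122 tested L1 families 6 rose, and 29 did without DMSO library A. The 6 were the older Lx3B (2.02, SE 0.25), Lx3_Mus (1.58), Lx3C (1.25) and Lx3A (1.16) and the younger L1Md_F3 (1.22) and L1Md_A (1.34, SE 0.40). L1Md_A had 3223, 1435 and 1161 normalized counts in DMSO against 4252, 4276 and 6220, and L1Md_T, not called, had 7864, 3296 and 3027 against 6017, 6512 and 9839 (0.66, adjusted p = 0.64). Control library A reached the dTAG range for L1Md_T. LINE families as a whole summed to 52095, 25867 and 22602 in DMSO and 42255 to 58435 with dTAG-13, so that the groups overlapped through library A alone. Without that library 110 repeat families were called, all of them higher, with 35 of the 40 among them (MERVL-int and MMERGLN-int could not be fitted). Of 35 SINE and 5 satellite families 0 were called by DESeq2, nor were any of the 28 and 4 that could be fitted without library A. The CR1 element X7C_LINE had 10.2, 10.7 and 7.93 against 119, 154 and 188 (3.98, SE 0.41), and the DNA transposons FordPrefect (1.03) and MER63D (1.86) also rose.

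The same clones had been sampled after 7 d of dTAG-13, with 7 d DMSO controls, so the effects can be subtracted. The 7 d values were normalized apart, and effects are taken within each time point. DMSO group means differed between the times in both directions, as for Car2 (74.2 at 7 d, 1034 at 15 d) and Txnip (12028 and 2421). Treatment time cannot be told apart from other differences between the 2 sets of libraries. At 7 d 912 of 24168 tested genes were higher (3.77%), and 491 of the 690 genes higher at 15 d were among them (71.2% of the 690 and 53.8% of the 912). The median log2 fold change of the 690 was 3.62 at 7 d, where 682 of them were tested. At 24 h 440 of 20983 were higher (2.10%), including 283 of the 690 (41.0%, or 64.3% of the 440), and the median of the 690 was 2.06. Of the 690, 614 were tested at 24 h, and the untested ones count as not higher in that share. Of the 72 genes that fell, 14 (19.4%) were lower at 7 d.

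The difference between the 15 d and the 7 d effect passed the test for 302 of 22102 genes, 186 greater (0.842%) and 116 smaller at 15 d (0.525%). Greater and smaller refer to the signed value, 15 d minus 7 d, and not to the size of the effect. A fall at 7 d that was absent at 15 d counts as greater, and a fall at 15 d alone counts as smaller. The count moved with single libraries, to 1066 genes without DMSO library A and to between 80 and 345 without another library of the 15 d groups. Of 682 tested genes that rose at 15 d, 32 had a greater effect at 15 d and 1 a smaller one. Of the 186, 79 had fallen at 7 d, and of the 116, 53 had risen at 7 d. Zscan4c (a difference of 0.12, adjusted p = 0.97) and Usp17lb (-0.22, adjusted p = 0.90) had no detected difference. Trophoblast genes differed, with 7 higher at 7 d, none called at 15 d and 4 with a smaller effect at 15 d (Plac1, Hand1, Krt8 and Krt18).

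**Figure D5:**
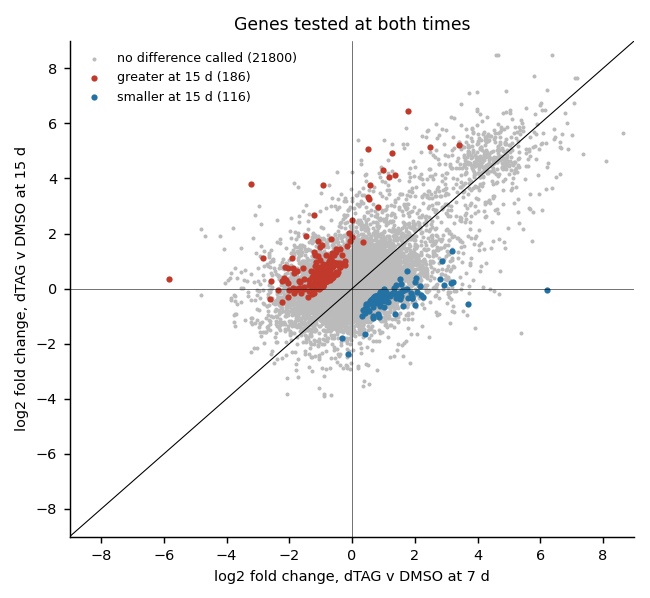
Log2 fold change at 15 d (vertical axis) against that at 7 d (horizontal axis), 1 point per gene, with the diagonal. Coloured points are genes whose effects differ by the test, 186 greater at 15 d above the diagonal (red) and 116 smaller below it (blue), of which the one farthest to the right is Plac1, near 0 at 15 d.

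Hand1, a trophoblast transcription factor, had 6.52, 6.48 and 5.94 normalized counts in the 7 d DMSO libraries and 53.9, 24.9 and 167 with dTAG-13, and at 15 d it had 5.08, 6.84 and 9.25 against 3.45, 2.90 and 8.02 (difference of the log2 fold changes -4.26, SE 1.09, adjusted p = 0.014). Plac1, a placental gene, gave -6.24 (SE 1.72, adjusted p = 0.025). Of the p53 targets 4 had a greater effect at 15 d, and Cdkn1a had 2566, 3311 and 2603 against 1543, 1705 and 1787 at 7 d (difference 1.46, adjusted p = 4.5e-06). Ntn1 (-2.24) and Cth (-1.44) fell at 15 d with effects of -0.13 and -0.33 at 7 d. Of 917 repeat families 3 had a greater effect at 15 d (0.327%), and 0 a smaller one (0.00%, with 1 family at an unadjusted p under 0.05). IAPLTR2a was among the 3, with 31.9, 34.2 and 28.7 normalized counts against 63.3, 54.5 and 56.6 at 7 d (difference 1.94, adjusted p = 0.017), and MT2_Mm was not (0.75, adjusted p = 0.64). The median difference over all families was 0.41, and none of the 3 passed after it was subtracted.

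In the washout group, which shares its controls with the 15 d comparison, levels relative to DMSO differed between members. Over the 690 genes that rose, the median log2 ratio of the washout mean to the DMSO mean was 0.39, and over the 72 that fell it was -0.16. Usp17lc had 31.1, 51.1 and 38.2 normalized counts after washout, Zscan4c 129, 396 and 213, and MT2_Mm 776, 1965 and 1177. Xlr5a, with 6.22, 42.7 and 55.1, Xlr5c, with 4.44, 19.5 and 20.2, Efhc2, with 20.4, 92.9 and 32.6, and IAPLTR2a, with 54.2, 75.3 and 90.0, lay above all their DMSO libraries. MERVL-int had a washout mean of 11016 against 5617 in DMSO, and the library ranges overlapped. Washout library B was the highest of the 3 for Usp17lc, Zscan4c, MT2_Mm and MERVL-int, and no test was made on these values. Library B also stood apart from the other washout libraries over all genes compared. The SD of its log2 difference was 0.589 from A and 0.465 from C, against 0.382 between A and C. It enters the spread of the 15 d model too.

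Wild-type mESCs given UNC0638 for 48 h served as the short, catalytic counterpart. Whole reads came out of 100% of the deposited values within 0.001 reads, and of 16335 tested genes 0 were called by limma (0.00%) and 0 by edgeR, with 2153 and 2048 at an unadjusted p under 0.05. Over 304 of the 690 genes tested there the median log2 fold change was 1.41. A filter on low counts chose the tested genes, and a gene can pass it through the UNC0638 libraries alone. The median therefore leans to genes high with UNC0638 and is no measure of the response of the 690. Zscan4d was at 2.18 (adjusted p = 0.36) and MERVL-int at 2.10 (adjusted p = 0.15). Of 721 tested repeat families RLTR45-int alone was called by either tool (1.92, SE 0.28, adjusted p = 0.030 by limma). Dose, time and cells differ from those of the 15 d groups, and the size of the effects was not compared.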

How the data were processed

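RNA was measured in 6 libraries, 3 of dTAG_15d and 3 of DMSO_15d. Per the study's methods and the submitters' processing notes, reads were trimmed with Trim Galore (0.6.7), aligned to mm10 (GRCm38) with STAR (2.7.10), introns not allowed and a single random place kept for reads with many, and counted for genes and repeat families together with TEcounts. The authors compared groups with DESeq2 (1.34.0).

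The deposited signal values are read counts divided by DESeq2 size factors and averaged by the authors over the libraries of a group. The deposited log2 fold changes with standard errors, and the deposited p-values (Wald test, Benjamini-Hochberg adjusted with independent filtering), hold the authors' own comparisons and were used as given for the 15 d, 24 h, 7 d and sorted comparisons. A feature with no adjusted p was taken as untested. A call needed an adjusted p under 0.05 and an absolute log2 fold change of at least 1.

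Because each library contributes whole reads times a step of its own, the reads of the libraries were recovered from the group means (means over 20000 were left out), and unrecovered genes carry 39.2% and 25.3% of the DMSO and dTAG means. DESeq2 (1.42.0) on these reads gave log2 fold changes within 0.00398 of the deposited ones. edgeR (4.0.16), limma (3.58.1), other thresholds and the omission of each library were alternatives, in R 4.3.3. The deposited 15 d model and these refits estimated their spread over the 15 d and washout groups together. The 15 d minus 7 d effect is a difference of log2 fold changes with the root of the summed squared errors, a normal p and Benjamini-Hochberg adjustment. UNC0638 was fitted with limma on log2 of the normalized count plus 1. The methods were tested on simulated data.

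Gene coordinates are those of GENCODE vM21, with 55141 of 55401 genes matched. The members and gene lists were chosen with earlier results of these data known. Named are list members, the 10 genes called in each direction with the smallest adjusted p, the 5 with the largest folds and a mean of at least 50, called repeat families, and the 5 largest differences from 7 d in each direction. Group means cover counting error and clone spread together, and intervals of single values are not given.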

Additional observations from a re-analysis of the deposited data

Results flagged for a closer look

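The effect in the 15 d groups differed from that in the 7 d groups for 302 genes. The test was on the difference of the 2 log2 fold changes, each with its own controls. Treatment time cannot be told apart from other differences between the 2 sets of libraries. In the direction of a lower signed fold at 15 d the largest differences (15 d minus 7 d, log2) were those of Plac1 (-6.24), Hand1 (-4.26), Igf2 (-3.00), Gm49394 (-2.95) and the kinase gene Prkg2 (-2.79). Gm49394 overlaps Igf2, an imprinted growth factor gene, and the pair cannot be told apart by their counts. Igf2 had 162, 105 and 72.2 normalized counts in the 7 d DMSO libraries against 792, 506 and 1882 with dTAG-13, and 268, 331 and 382 against 249, 361 and 535 at 15 d.

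In the direction of a higher signed fold at 15 d they were Gm42655 (7.00), Tex45 (6.18), 4933440M02Rik (4.67), the pseudogene Gm4810 (4.66) and the phosphate transporter gene Slc34a2 (4.59). Tex45 had 11.6, 9.26 and 12.9 normalized counts in DMSO and was listed at 0 with dTAG-13 at 7 d, and had 5.08, 1.95 and 0 against 6.03, 0.966 and 2.29 at 15 d, so its difference comes from the 7 d arm at counts of a few reads. Gm4810 had 0.847, 0 and 1.32 against 44.8, 57.0 and 76.7 at 15 d, and 13.1, 21.3 and 22.8 against 47.0, 85.3 and 63.9 at 7 d.

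Among repeat families the same test passed for MLT1J1 (3.67), IAPLTR2a (1.94) and FordPrefect (1.63). After the median difference of all families was subtracted 0 of the 3 passed, and 1 passed at an adjusted p under 0.01. FordPrefect, a DNA transposon, had 232, 212 and 200 normalized counts in DMSO against 504, 301 and 511 at 15 d, and 366, 386 and 415 against 281, 202 and 286 at 7 d.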

How the results depend on the processing

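Called genes (762) numbered between 599 and 975 under the other thresholds, filters, scalings and tools tried, apart from 493 among protein-coding genes alone, and edgeR with TMM called 626 (606 shared). Leaving out 1 library gave 555 to 1163 genes, the highest without DMSO library A. Called repeat families (40) were 26 at an adjusted p under 0.01 and 25 by edgeR with TMM, and 21 to 110 with 1 library left out, the highest again without DMSO library A, while each of the other 5 libraries lowered the count to between 21 and 26. The 15 d minus 7 d difference (302 genes) gave 104 at an adjusted p under 0.01 and 80 to 1066 with 1 library left out, with 84 without DMSO library B, 107 without C, 80 without dTAG library A, 104 without C and 139 without 7 d dTAG library A. For repeat families (3) it gave 1 at an adjusted p under 0.01, 0 after centring on the median and 1 to 96 with 1 library left out, the highest without DMSO library A. The causes were not tested. Runs of neighbouring genes (26) were 18 with a minimum of 5 genes or among protein-coding genes, and 25 without DMSO library A. No named gene or family called at 15 d turned its direction. Of those not called, Tet1 had every dTAG library above DMSO libraries B and C, so the sign of its fold depends on library A. No paired analysis was possible because the deposited columns are group means and the recovered libraries carry no clone number. Library recovery, edgeR, limma and the fits without a library were added after the data were seen. Depth limits genes listed at 0 in DMSO, for which 3 reads over the group allow a mean of 1.01 normalized counts.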
